A study of Mus musculus with 4 samples.

Results

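Cyyr1, Ldb2, Fli1, Ptprb, Ebf1, Tshz2, Fgf12, Pecam1, Flt1 and Fabp4, most of which are best known from endothelial or stromal cells, were followed through cardiomyocyte nuclei of the neonatal mouse heart. These 10 of the 22574 genes in the count matrix were picked from earlier results of the same data because their level was higher in the nuclei called CM4 than in the other nuclei. The CM4 excess therefore describes how they were chosen and is given without a test. What the choice did not use is how their counts were spread over single nuclei, which other genes those nuclei held, and how the levels differed between libraries.

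Single nuclei were sequenced from hearts of Nrf1 fl/fl mice on a C57BL/6 background, in which both alleles of Nfe2l1, the gene for the stress-response transcription factor Nrf1, carry loxP sites. Mice labelled KO also had αMHC-Cre, a Cre recombinase driven by the promoter of a cardiomyocyte myosin, so that endothelial and stromal cells of these hearts are not the intended target of the deletion, and mice labelled WT had no Cre. At postnatal day 3 a coronary artery of the pups, the left anterior descending, was ligated to cause myocardial infarction (MI), or Sham surgery was done, and 1 day later each library was made from the pooled lower ventricles of 4 to 6 hearts. WT-MI, KO-MI, WT-Sham and KO-Sham had 1 library each, so that no value has a replicate, and no test between groups was made. The level of Nfe2l1 over all nuclei of a library, in counts per 1000000 UMIs (CPM, where a UMI, or unique molecular identifier, stands for 1 captured RNA molecule), was 47.4 in WT-MI, 55.3 for KO-MI, 62.2 for WT-Sham and 50.5 for KO-Sham. Over all nuclei it was not lower in the library labelled KO-MI than in WT-MI. In CM4 it was 61.7 CPM (26 UMIs) for WT-MI, 32.0 (11 UMIs) for KO-MI, 55.6 (22 UMIs) for WT-Sham and 41.1 (30 UMIs) for KO-Sham, lower in both libraries labelled KO, with intervals that overlapped. Which exons the deletion removes is not given in the sources used here, and nuclear counts can come from the rest of the gene, so these values do not check the genotype labels.

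The matrix held 8585 nuclei of cardiomyocyte clusters only, because the authors had removed the other cell types. The deposited populations were CM1 (which includes CM3), CM2, CM4 and CM5, and CM4 is the population that the study treats as immature and regenerative. CM4 held 853 nuclei, 192 of WT-MI, 118 of KO-MI, 192 of WT-Sham and 351 of KO-Sham, with 343672 to 730490 UMIs per library. These nuclei were shallower than the rest, with medians of 1716 to 2394 UMIs per nucleus against 2645 to 4104, and mitochondrial transcripts made up a median of 9.47 to 14.6% of their UMIs against 5.07 to 8.72%. Across libraries, 9 cell barcodes occurred more than once, in 18 nuclei.

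Blood vessels of the heart are lined by endothelial cells, and capillaries run close beside the cardiomyocytes. Endothelial cells hold together through adhesion molecules such as Pecam1, sense vascular endothelial growth factor (VEGF) through receptors that include Flt1, and carry the receptor phosphatase Ptprb, which acts on the receptor Tek and on vascular cadherin. Their gene programme depends on transcription factors of the ETS family such as Fli1, and heart capillaries take up fatty acids with the help of the carrier Fabp4. Ldb2 is a cofactor that links LIM-domain proteins to DNA-binding factors. Ebf1 is a helix-loop-helix factor of B cells and of several stromal cell types, and Tshz2 is a zinc finger factor of the teashirt family. Fgf12 encodes an intracellular relative of the fibroblast growth factors that binds voltage-gated sodium channels in excitable cells and belongs to neither class.

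Promoter sequence was examined because Fli1 and other ETS factors bind sites with a GGAA core. RefSeq start sites of the GRCm38.p6 build gave 300-base windows, from 250 bases before to 50 after the start, for 5 of the 10 genes, 9 windows in all. The letters GGAAGT, or ACTTCC as the same site on the other strand, occurred in the windows of Flt1 and Tshz2 and in 1 of 2 windows of Ebf1, and in none of Cyyr1 or Fgf12. The same letters occurred in 7809 of 32851 promoter windows of that length, or 23.8%. Windows are printed for Flt1 (chr5:147725962-147726261, minus strand), an endothelial receptor gene with a match, for Tshz2 (chr2:169632259-169632558, plus strand), a stromal gene with a match near the 5′ end of the window, and for Cyyr1 (chr16:85550324-85550623, minus strand), which has none. Capitals mark the match, which is a description of the letters and not evidence of binding.
Flt1: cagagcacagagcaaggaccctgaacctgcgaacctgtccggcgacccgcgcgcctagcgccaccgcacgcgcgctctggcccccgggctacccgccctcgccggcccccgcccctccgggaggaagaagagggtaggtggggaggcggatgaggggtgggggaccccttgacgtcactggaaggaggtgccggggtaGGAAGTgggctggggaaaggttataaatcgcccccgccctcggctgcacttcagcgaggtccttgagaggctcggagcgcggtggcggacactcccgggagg
Tshz2: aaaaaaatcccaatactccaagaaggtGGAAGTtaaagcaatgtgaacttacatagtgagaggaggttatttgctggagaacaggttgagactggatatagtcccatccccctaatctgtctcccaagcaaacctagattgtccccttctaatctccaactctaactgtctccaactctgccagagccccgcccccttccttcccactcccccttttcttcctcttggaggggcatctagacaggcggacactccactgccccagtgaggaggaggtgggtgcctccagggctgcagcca
Cyyr1: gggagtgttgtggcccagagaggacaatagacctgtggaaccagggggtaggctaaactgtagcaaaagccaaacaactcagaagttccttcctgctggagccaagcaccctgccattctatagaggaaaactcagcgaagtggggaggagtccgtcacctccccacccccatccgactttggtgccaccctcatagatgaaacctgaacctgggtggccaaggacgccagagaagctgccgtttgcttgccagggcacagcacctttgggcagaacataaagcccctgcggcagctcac

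The genes lie on 7 chromosomes and most are long. In the GENCODE annotation of GRCm38, Flt1 spans chr5:147561604-147726011, Pecam1 chr11:106654217-106750628, Fli1 chr9:32422204-32542861, Cyyr1 chr16:85421533-85553397, Ldb2 chr5:44472132-44799680 and Fabp4 chr3:10204088-10208576, all on the minus strand. Ptprb spans chr10:116275523-116389535, Ebf1 chr11:44617317-45008091 and Tshz2 chr2:169633013-170071816, on the plus strand, and Fgf12 chr16:28160098-28753068 on the minus strand. Fgf12 is the longest at 593 kb and Fabp4 the shortest at 4.49 kb. The median member was 148 kb long, against 24.7 kb over the 14882 genes with a position and at least 20 UMIs. Of the members, 8 of 10 reached 100 kb, against 15.2% of those genes. Length matters here because reads in introns were counted and long genes stood lower in CM4. The median log2 ratio of CM4 over other nuclei was 0.59 for genes under 10 kb, −0.65 for genes of 100 to 300 kb and −0.82 for genes of 300 kb or more. Relative to those medians, the 8 long members (all but Pecam1 and Fabp4) stood higher than relative to the median of all genes, −0.12, whereas Fabp4 was in the class of short genes, 30.9% of which were at least 2-fold higher in CM4. Ldb2, Fli1 and Ebf1 each overlap 1 other gene of the matrix, and their counts cannot be fully separated from that gene because the use of strand in the counting is not given in the sources used here.

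**Figure D1:**
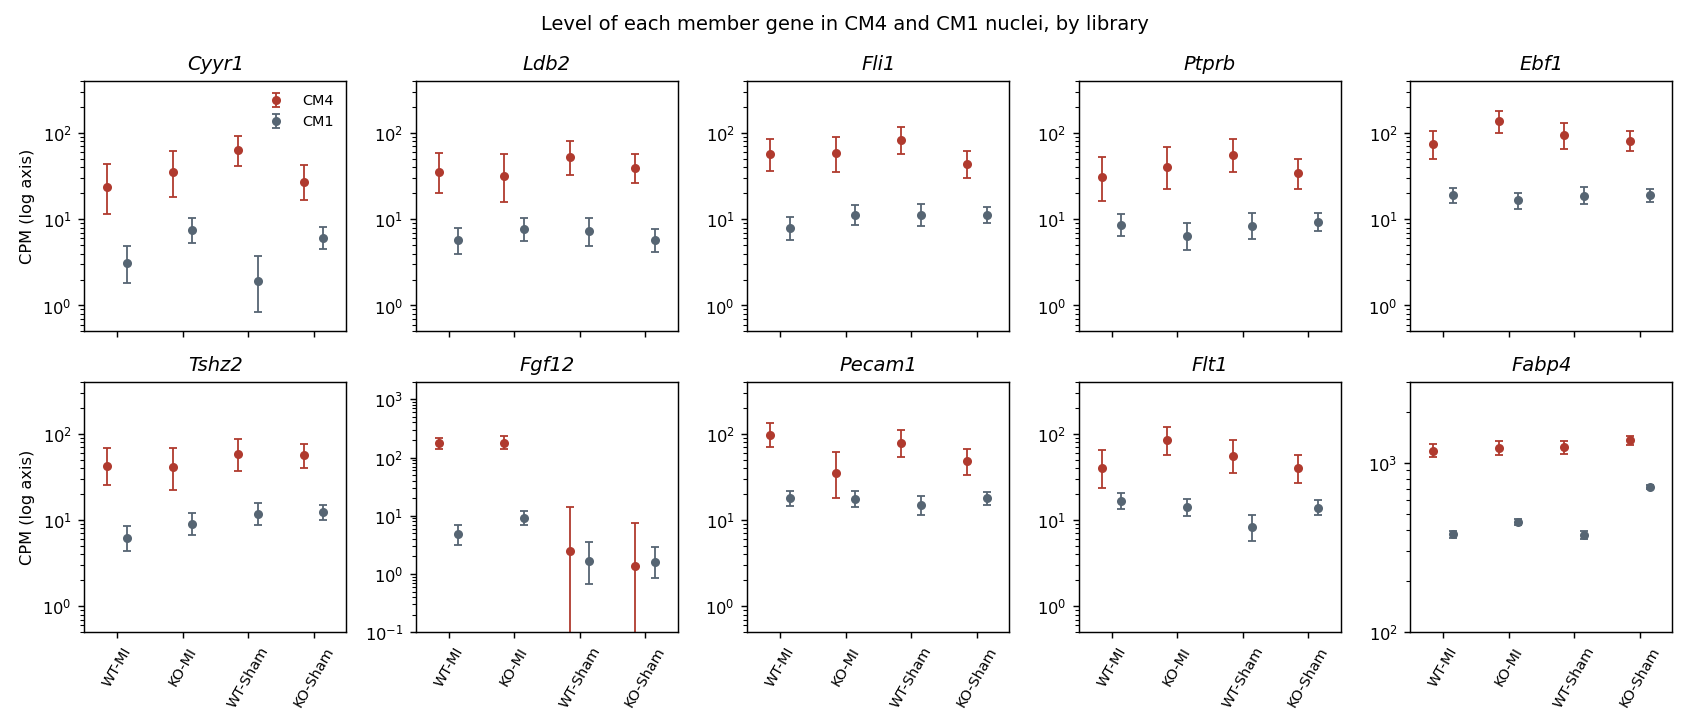
Level of each of the 10 genes, in CPM on a log axis, in CM4 (red) and CM1 (grey) nuclei of the 4 libraries, with exact 95% Poisson intervals. In 8 panels the CM4 point lies above the CM1 point in every library with intervals that mostly do not touch, and Fabp4 does so from a higher base. Fgf12 shows a wide gap in the MI libraries only, and its CM4 point rests on 1 UMI in each Sham library.

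Flt1, Pecam1 and Ptprb encode surface proteins of endothelial cells, and all stood higher in CM4 than in CM1 in each library. Flt1, a VEGF receptor that can also act as a decoy, was at 40.3 CPM in CM4 of WT-MI, 84.4 of KO-MI, 55.6 of WT-Sham and 39.7 of KO-Sham, from 17 to 29 UMIs per library, against 16.7, 14.1, 8.19 and 13.9 CPM in CM1. The KO-MI library was the highest, and the intervals of all 4 libraries overlapped. Pecam1, the adhesion molecule of endothelial junctions, was at 97.3, 34.9, 78.4 and 47.9 CPM in CM4 in the same order of libraries and at 14.9 to 18.0 CPM in CM1. Here KO-MI was the lowest, with an exact 95% interval of 18.0 to 61.0 that touched the CM1 interval of 14.1 to 21.4, and WT-MI was the highest. Ptprb was at 30.9, 40.7, 55.6 and 34.2 CPM in CM4 and at 6.39 to 9.41 in CM1, and all 4 CM4 intervals overlapped. These intervals, and all others below, cover counting error only.

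A UMI of any of these genes was found in a minority of CM4 nuclei, and in a smaller share of CM1 nuclei. Pecam1 was detected in 15.1% of CM4 nuclei of WT-MI, 9.32% of KO-MI, 12.0% of WT-Sham and 8.26% of KO-Sham, against 4.93 to 6.88% in CM1, a population in which the gene is not known to be used. CM4 nuclei are shallower, so the same shares were taken after each nucleus was thinned at random to 1000 UMIs, which left out 7 nuclei. They were then 8.90, 3.39, 6.95 and 4.56% in CM4 and 1.72 to 1.98% in CM1. For Flt1 the share in CM4 was 8.85, 20.3, 8.85 and 5.98%, or 4.19, 11.0, 5.35 and 3.42% after thinning, with 0.820 to 1.91% of thinned CM1 nuclei. In both genes the CM4 share stayed above the CM1 share after thinning.

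The 4 regulators of transcription followed the same order of populations. Fli1, the ETS factor, was at 57.0, 58.2, 83.4 and 43.8 CPM in CM4 of WT-MI, KO-MI, WT-Sham and KO-Sham and at 7.93 to 11.3 CPM in CM1. Ldb2 was at 35.6, 32.0, 53.1 and 39.7 CPM in CM4 and at 5.69 to 7.70 in CM1. In WT-MI, however, 9 of its 15 CM4 UMIs were in 1 nucleus, and without that nucleus the log2 ratio of CM4 over other nuclei in that library went from 2.64 to 1.33. Tshz2 was at 42.7, 40.7, 58.2 and 56.1 CPM in CM4 and at 6.21 to 12.3 in CM1. Ebf1 was at 73.6, 137, 93.6 and 80.8 CPM in CM4, with 31, 47, 37 and 59 UMIs, and at 16.5 to 19.0 CPM in CM1. The CM1 level of Ebf1 was nearly the same in the 4 libraries, while its CM4 level was highest in KO-MI, where 11 of the 47 UMIs were in 1 nucleus.

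Cyyr1 encodes a small cysteine and tyrosine-rich membrane protein. The CM4 level was 23.7 CPM for WT-MI (10 UMIs), 34.9 for KO-MI (12 UMIs), 63.2 for WT-Sham (25 UMIs) and 27.4 for KO-Sham (20 UMIs). WT-Sham was the highest of the 4 in CM4 and the lowest in CM1, where the levels were 3.10, 7.52, 1.93 and 6.13 CPM. That library therefore had the widest gap between populations of any gene and library but Fgf12 in WT-MI, with a log2 ratio of CM4 over other nuclei of 5.01 (95% interval 3.86 to 6.29) against 2.14 to 2.32 in the other libraries. In thinned nuclei Cyyr1 was detected in 6.42% of CM4 and 0.273% of CM1 in WT-Sham.

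Fabp4 differed from these genes in that most nuclei of every population held it. Its CM4 level was 1175, 1222, 1231 and 1355 CPM, and the CM1 level was 377, 448, 375 and 717 CPM in the same order, from WT-MI and KO-MI to WT-Sham and KO-Sham. The CM4 levels were close to each other and the CM1 level of KO-Sham stood apart, so that the log2 ratio of CM4 over other nuclei was 1.67, 1.45 and 1.59 in the first 3 libraries and 0.94 in KO-Sham. Fabp4 was detected in 75.0 to 87.3% of CM4 nuclei and in 68.7 to 81.4% of CM1 nuclei, which overlap. After thinning, the shares were 58.1, 63.6, 66.3 and 68.7% in CM4 and 27.7, 33.9, 29.4 and 49.3% in CM1, and no longer overlapped. Fabp4 also held 67.1, 65.5, 69.4 and 78.5% of all UMIs of the 10 genes in CM4 of the 4 libraries, so a sum over the 10 is weighted towards Fabp4. For that reason sums are also given over 8 genes, without Fabp4 and without Fgf12, a choice made after their values were seen.

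Fgf12 did not share the pattern of the set. Its 138 UMIs in CM4 came from 12 nuclei, and a single WT-MI nucleus held 58 of them (42.0%). The level was 176 CPM in WT-MI and 180 in KO-MI, with 74 and 62 UMIs, against 1 UMI in each Sham library. In all populations together, 11 nuclei held 5 or more Fgf12 UMIs, all of them in the MI libraries, and 5 of these were not CM4: 1 KO-MI nucleus of CM5 held 131 UMIs, and 4 nuclei of CM1 held 34, 8, 7 and 5. Without the nuclei of 5 or more UMIs, CM4 of WT-MI had 0 Fgf12 UMIs, which allows up to 3, and CM4 of KO-MI had 8, or 24.2 CPM. Of these 11 nuclei, 8 held no UMI of the other 8 genes and 3 held 1 each. In KO-MI, 2 of them carried 42 and 26 UMIs of the atrial light chain gene Myl7, and every one of the 11 had at least 5 UMIs of Tnnt2, the cardiac troponin T gene that marks cardiomyocytes.

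**Figure D2:**
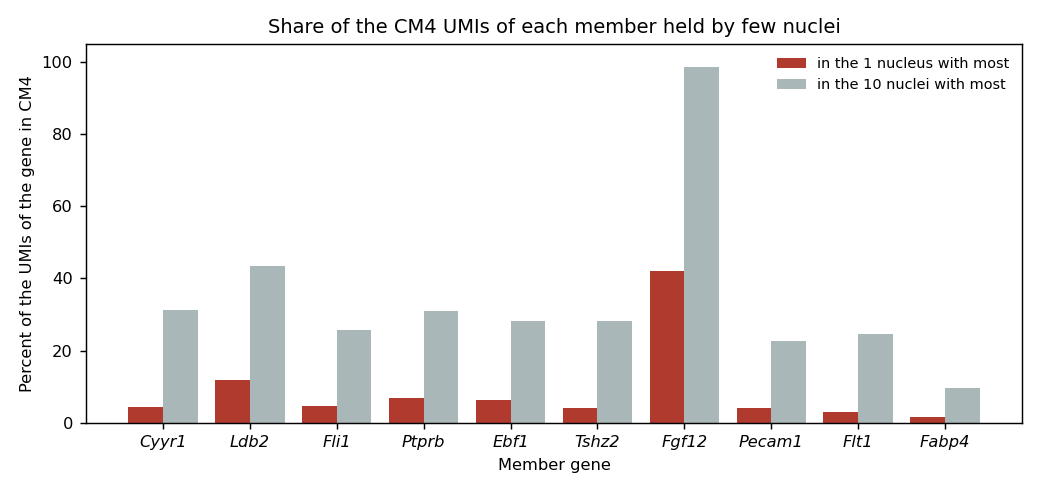
Share of each gene's CM4 UMIs, in percent from 0, that was held by the single CM4 nucleus with most of them (red) and by the 10 CM4 nuclei with most (grey). Fgf12 stands apart, with 42.0% in 1 nucleus and 98.6% in 10, and Fabp4 is the most evenly spread, with 1.51% and 9.62%.

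In the 8 genes the counts were spread thinly rather than piled up. Of the CM4 nuclei that held a gene at all, between 71.2% (Ebf1) and 85.2% (Ptprb) held exactly 1 UMI of it. The single nucleus with most UMIs held from 3.09% (Flt1) to 11.8% (Ldb2) of the CM4 UMIs of the gene. The largest number of UMIs of 1 of these genes in a CM4 nucleus was 11, for Ebf1.

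The values that led to the choice of these genes are given here once. Over the mean CPM of the 4 libraries, the log2 ratio of CM4 over other nuclei was 3.42 for Fgf12, 2.89 for Cyyr1, 2.56 for Ldb2, 2.47 for Fli1, 2.31 for Ebf1, 2.26 for Ptprb, 2.21 for Tshz2, 1.98 for Flt1, 1.89 for Pecam1 and 1.37 for Fabp4. Ranked among 15076 genes, Fgf12 was at place 4, Cyyr1 at 12, Pecam1 at 200 and Fabp4 at 836. Of all genes, 15.1% were at least 2-fold higher by that mean. Within libraries, 10 of 10 members were at least 2-fold higher in CM4 in WT-MI (18.0% of all genes), 9 of 10 in KO-MI (20.6%), 9 of 9 in WT-Sham (17.4%) and 8 of 9 in KO-Sham (5.53%). The exceptions were Pecam1 in KO-MI, with a log2 ratio of 0.91 (95% interval −0.08 to 1.77), and Fabp4 in KO-Sham, and Fgf12 had too few UMIs to enter in the Sham libraries. The median over members was 2.31, 2.22, 2.79 and 1.93 beside medians of 0.01, −0.04, −0.27 and −0.09 over all genes.

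**Figure D3:**
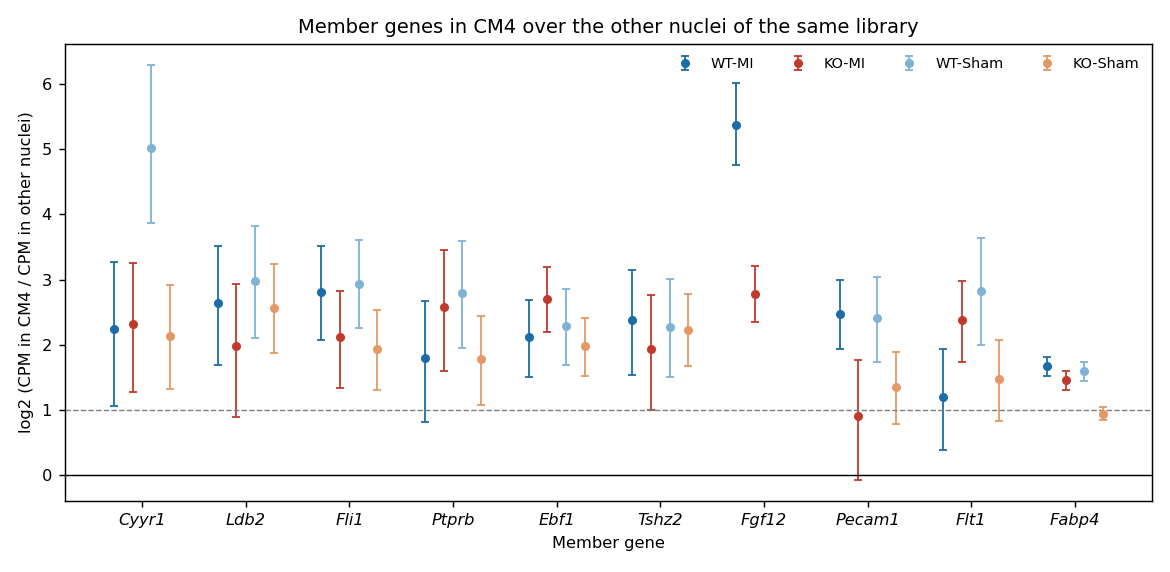
Log2 ratio of CPM in CM4 over the other nuclei of the same library for each gene, with exact 95% conditional binomial intervals, one colour per library. The dashed line marks 2-fold. Most points lie between 1 and 3, Cyyr1 in WT-Sham and Fgf12 in WT-MI lie above 5, and Fgf12 is not drawn for the Sham libraries.

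Summed over the 10 genes, the log2 ratio of CM4 over other nuclei was 1.92 in WT-MI (95% interval 1.81 to 2.04), 1.70 in KO-MI (1.58 to 1.82), 1.85 in WT-Sham (1.73 to 1.97) and 1.10 in KO-Sham (1.01 to 1.18). Over the 8 genes it was 2.19, 2.18, 2.73 and 1.89 in the same order. KO-Sham was the lowest in both sums. In that library the other nuclei were also the shallowest and the richest in mitochondrial UMIs, and the part of these differences in the lower ratio was not tested.

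A minority of CM4 nuclei held more than 1 of the 8 genes, 148 of 853 without thinning (17.4%). The genes were chosen for a higher level in CM4, so a larger share in CM4 than in CM1 follows from that choice. These shares alone do not tell whether the genes met in a nucleus more often than their single levels imply. In CM4, 486 of 853 nuclei had none of the 8 genes, 219 had 1, 89 had 2, 37 had 3 and 22 had 4 or more. In CM1, 4847 of 6440 nuclei had none, 1360 had 1, 192 had 2, 34 had 3 and 7 had 4 or more. The share with 4 or more was thus 2.58% in CM4 and 0.109% in CM1, although CM1 nuclei were deeper. At an equal depth of 1000 UMIs, 53 of 847 CM4 nuclei held 2 or more of the 8 genes (6.26%, exact Clopper-Pearson 95% interval 4.72 to 8.11), against 29 of 6439 CM1 nuclei (0.450%, 0.302 to 0.646). By library the CM4 share was 5.76% for WT-MI, 4.24% for KO-MI, 9.63% for WT-Sham and 5.41% for KO-Sham. With all 10 genes counted the shares were 19.4, 28.8, 28.9 and 19.1% in CM4 and 2.90, 3.44, 2.73 and 5.38% in CM1.

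Over the 4 libraries together, a CM4 nucleus that held 1 of the genes was more often found to hold another. In KO-MI, where few nuclei held each gene, this did not hold for every gene. Of the 53 CM4 nuclei with Ldb2, 47 held at least 1 of the other 7 genes (88.7%), against 39.2% of the CM4 nuclei without Ldb2. Ldb2 was the extreme, and Flt1 was the lowest of the 8, at 55.7% with the gene and 37.2% without it. The others were Cyyr1 (69.1 and 39.1%), Ptprb (68.9 and 38.6%), Tshz2 (64.9 and 37.4%), Fli1 (61.2 and 37.1%), Ebf1 (60.4 and 34.5%) and Pecam1 (56.5 and 36.1%). Nuclei with a gene were deeper, with a median of 2589 UMIs for those with Cyyr1 against 1854.5 for those without it. After thinning to 1000 UMIs, the share over the 4 libraries together was again higher with the gene for each of the 8, from 63.3 against 25.9% for Ldb2 and 55.6 against 26.2% for Cyyr1 to 29.1 against 23.6% for Ebf1, the narrowest. The intervals with and without the gene were apart for Ldb2 and Cyyr1. For Tshz2 they were only just apart, at 28.6 to 61.7% against 22.3 to 28.4%. For Fli1, Ptprb, Ebf1, Pecam1 and Flt1 they overlapped. Within KO-MI the share was not higher with the gene for all of the 8. Without thinning, only Tshz2 and Pecam1 were not higher there, each at 54.5% with the gene and 55.1% without it. After thinning, 5 of 8 genes had a lower share with the gene, among them Fli1 with 0 of 7 nuclei against 33.3% and Ebf1 with 1 of 12 against 30.2%. These thinned KO-MI shares rest on 3 (Ldb2) to 13 (Flt1) nuclei with the gene. In thinned KO-MI nuclei the intervals with and without the gene overlapped for each of the 8. Thinned nuclei also had a lower share with the gene for Ebf1 in WT-Sham (17.6 against 32.4%) and for Flt1 in KO-Sham (16.7 against 18.9%). Over the 4 libraries together, Fabp4 also had a higher share with the gene in thinned nuclei, 32.5 against 21.3%. For Fgf12 only 10 thinned nuclei remained, 3 of which held another gene, against 28.6% of the nuclei without it.

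Among pairs of the 8 genes in CM4 nuclei, Ebf1 and Tshz2 shared the most nuclei without thinning, 23, which were 20.7% of those with Ebf1 and 29.9% of those with Tshz2. Of the nuclei without Ebf1, 7.28% held Tshz2. Ebf1 was also the most often detected of the 8 genes, in 111 nuclei, and counts of shared nuclei depend on how often each gene is detected. Ebf1 with Pecam1 shared 21 nuclei, and Ebf1 shared 19 with each of Fli1 and Cyyr1. Fli1 and Ptprb shared the fewest, 6 nuclei, or 7.50% of those with Fli1 and 9.84% of those with Ptprb. Ptprb was in nearly the same share of the nuclei without Fli1, 7.12%. The order changed with thinning, where Ldb2 shared 6 nuclei with each of Flt1 and Pecam1, Ebf1 with Tshz2 shared 5, and Ebf1 with Pecam1 shared 1. In thinned nuclei Pecam1 was in 1.82% of those with Ebf1 and 6.19% of those without it. Fgf12 shared no CM4 nucleus with Cyyr1, Ldb2, Fli1, Ptprb or Flt1, but only 12 CM4 nuclei held it, too few for this to show separation. Of the 41 CM1 nuclei with Fgf12, 3 held Ptprb, 2 held Flt1 and none held Cyyr1, Ldb2 or Fli1.

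Of all 8585 nuclei, 35 held 4 or more of the 8 genes, and a KO-MI nucleus of CM4 held all 8. By the deposited label 22 of the 35 were CM4 (62.9%), and by the label transferred from the study's earlier reference 26 were. These 35 nuclei had from 1323 to 5935 UMIs, of which 4 to 11 were of the 8 genes, at most 0.605% of a nucleus. Each of them also held cardiomyocyte RNA, with 2 to 44 Tnnt2 UMIs (median 17) and 58 to 405 UMIs (median 180) over 10 cardiomyocyte genes.

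Tnnt2 was detected in 99.9% of all CM4 nuclei, so its presence beside a gene says little. Every CM4 nucleus with a UMI of Cyyr1 (55 nuclei), Ldb2 (53), Fli1 (80), Ptprb (61), Ebf1 (111), Tshz2 (77), Pecam1 (92), Flt1 (79) or Fgf12 (12) had at least 1 Tnnt2 UMI, and so had 693 of 694 nuclei with Fabp4. The median was 15 Tnnt2 UMIs in the nuclei with Cyyr1 and 10 in those with Pecam1. In thinned nuclei, Tnnt2 in CM4 nuclei with 2 or more of the 10 genes over CM4 nuclei with none had a log2 ratio of −0.02 in WT-MI (95% interval −0.29 to 0.25), 0.01 in KO-MI (−0.29 to 0.30), −0.14 in WT-Sham (−0.37 to 0.10) and 0.11 in KO-Sham (−0.09 to 0.30). With the 8 genes the ratios were −0.25, 0.00, 0.07 and 0.19. Each of these intervals included 0, and those of the 10-gene comparison reached no further than 0.37 on the log2 scale in either direction. Gene by gene over all 4 libraries, Tnnt2 in thinned CM4 nuclei with the gene over those without it was higher for Cyyr1, at 0.36 (0.15 to 0.57), and ranged from −0.15 (Pecam1) to 0.19 (Tshz2) for the others, with intervals that included 0. Within libraries the ratios went both ways, with −0.93 (−1.61 to −0.32) for Ebf1 in WT-MI, −0.68 (−1.31 to −0.12) for Fli1 in KO-MI and 0.54, with an interval above 0, for Tshz2 in WT-MI, from 6 to 9 nuclei each. Free RNA in the droplets, which gives UMIs of a gene to nuclei that do not express it, and more than 1 nucleus in a droplet were not tested as sources of the shared counts. Doublets had been removed by the authors.

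Other endothelial genes were higher in the few CM4 nuclei with 2 or more of the 8 genes. For fibroblast genes no difference beyond counting error was found. In thinned CM4 nuclei, a list of 16 other endothelial genes (among them Cdh5, Kdr, Tek, Emcn, Cldn5 and Eng) summed to 450 CPM in nuclei with none of the 8 genes, 915 in those with 1 and 1208 in those with 2 or more. The log2 ratio of 2 or more over none was 1.72 in WT-MI (95% interval 0.91 to 2.46), 1.53 in KO-MI (0.23 to 2.64), 1.22 in WT-Sham (0.47 to 1.93) and 1.11 in KO-Sham (0.18 to 1.93), and so was above 0 in all 4 libraries. The nuclei with 2 or more were only 11, 5, 18 and 19 in the same order. They held 19, 8, 23 and 14 UMIs of the list. The intervals treat UMIs as independent and do not cover the spread between nuclei. In CM1 the same list rose from 172 to 227 and 414 CPM. For 7 fibroblast genes, which include Col1a1, Col3a1 and Dcn, the ratios in CM4 were −0.27, 0.14, −0.01 and −0.29, and each interval included 0. Fabp4 was higher with the 8 genes in WT-MI, at 2.07 (1.55 to 2.57), and its intervals included 0 in the other 3 libraries, with values of 1.10, 0.45 and 0.49. The 10 cardiomyocyte genes were lower in the nuclei with 2 or more members in WT-MI, at −0.17 (−0.31 to −0.04), and in KO-MI, at −0.26 (−0.46 to −0.08), and at −0.03 and 0.07 in the Sham libraries.

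**Figure D4:**
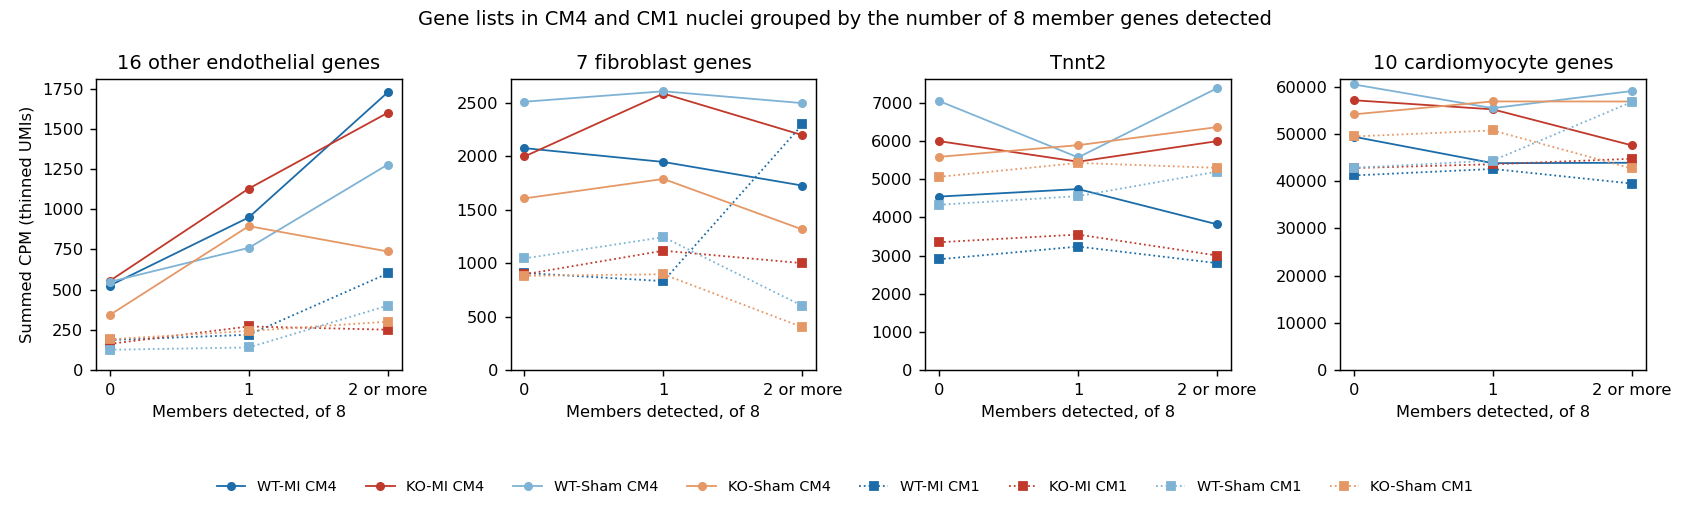
Summed level, in CPM of thinned UMIs on a linear axis from 0, of 16 other endothelial genes, 7 fibroblast genes, Tnnt2 and 10 cardiomyocyte genes in CM4 nuclei (circles, solid) and CM1 nuclei (squares, dotted) with 0, 1 and 2 or more of the 8 genes. The endothelial list is higher at 2 or more than at 0 in CM4 of every library, and the other 3 panels show no common slope. The last points rest on 5 to 19 nuclei each in CM4 and on 4 to 10 in CM1.

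The genes most raised in CM4 nuclei with 2 or more members were sought by a fixed ranking over genes with at least 30 thinned UMIs. With all 10 genes as members, Fbxl7 had the highest log2 ratio at 2.31 (25 against 6 UMIs), followed by Nfic, Gars, Cavin2 and Maml2 at 1.44 to 1.78, and 1.37% of 2270 genes were at least 2-fold higher. Each of these 5 genes was higher in 4 of 4 libraries, which follows in part from the ranking because it summed the same libraries. Cavin2 encodes a protein of caveolae, the membrane pits that are common in endothelial cells. The lowest were Sec31a at −2.47, Ola1, Speg, Arid2 and Tubb2a. With the 8 genes as members Fbxl7 was again the highest, at 2.63, followed by Fryl, Dach1, Rarres2 and Gars, beside 5.19% of 3527 genes. In this ranking Gars was higher in 4 of 4 libraries, and Fbxl7, Fryl, Dach1 and Rarres2 each in 3.

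The wider endothelial list stood higher in CM4 than in other nuclei, as the members did. Its summed log2 ratio was 1.98, 1.89, 2.22 and 1.32 in WT-MI, KO-MI, WT-Sham and KO-Sham. By the mean of the libraries 15 of its 16 genes were at least 2-fold higher in CM4, with a list median of 1.86. Shank3 (2.39), Adgrf5 (2.25) and Kdr (2.13) were the highest, and Robo4 (0.69), Tie1 (1.24) and Erg (1.37) the lowest. No gene of the list was at 0 in CM4.

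CM4 nuclei also held more RNA of several other cell types, beside each of the results above. Counts of these lists stand against 15.1% of all genes at least 2-fold higher and 14.7% at least 2-fold lower by the mean of the libraries. All 7 fibroblast genes were at least 2-fold higher by the mean of the libraries, and their sum had log2 ratios of 1.37, 1.28, 1.20 and 1.09. Red blood cell genes, the haemoglobins and Alas2, were at 0.97, 0.79, 2.37 and 2.09, with 5 of 5 at least 2-fold higher by the mean, and were highest in the Sham libraries. Myeloid genes were at 1.08, 0.69, 0.81 and 0.54, with 4 of 9 at least 2-fold higher and F13a1 lower at −0.76. Pericyte and smooth muscle genes were at 0.06, 0.35, −0.37 and −0.20 as a sum, most of which was Abcc9, a potassium channel subunit gene at −0.67, and 5 of 7 of them were at least 2-fold higher, led by Myh11 (2.51, from 6 CM4 UMIs) and Rgs5 (1.96). Epicardial genes were at 0.96, 1.19, 1.25 and 1.03, with 3 of 4 at least 2-fold higher. Endocardial genes were at −0.33, −0.12, 0.27 and −0.17 as a sum. Most of that sum in the other nuclei was Tmem108, which was lower in CM4 at −0.81. Plvap (1.33), Npr3 (1.09) and Cdh11 (0.68) were higher, and 2 of 4 were at least 2-fold higher. CM4 thus stood higher for genes of several cell types, and the part of RNA from other cells in the members' levels was not tested.

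Within cardiomyocyte genes the direction was mixed. Actc1 (1.48), Myl3 (1.32) and Tnni3 (1.24) were higher in CM4 and Ryr2 (−1.20), Ttn (−0.77) and Actn2 (−0.27) were lower by the mean of the libraries, and 5 of 10 were at least 2-fold higher and 1 lower. Tnnt2 was at 4716, 6189, 6984 and 5874 CPM in CM4 and at 2890, 3337, 4284 and 5065 in CM1. Atrial genes had sums of 1.61, 4.23, 1.11 and 0.72, and KO-MI, which held the Fgf12 nuclei rich in Myl7, was the highest.

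Partners of the members in their pathways went both ways. Of 12 genes of VEGF and angiopoietin signalling, 6 were at least 2-fold higher in CM4 by the mean of the libraries and 2 at least 2-fold lower, against 15.1 and 14.7% of all genes. The ligand gene Pgf (2.17) and the receptor genes Kdr (2.13) and Nrp2 (1.86) were the highest. The ligand genes Angpt1 (−1.80) and Angpt2 (−1.50) and the receptor gene Nrp1 (−0.91) were the lowest, and Vegfa, the main VEGF ligand gene, was at −0.89. The ligand gene Vegfb was at 0.94, so that neither the receptor genes nor the ligand genes shared 1 direction. Of 6 ETS factor genes other than Fli1, 3 were at least 2-fold higher, Erg (1.37), Ets1 (1.24) and Elk3 (1.08), and Ets2 (0.91), Gabpa (−0.31) and Etv6 (−0.71) did not pass 2-fold in either direction. Erg rested on 11 UMIs in CM4 and was above 0 in 2 of 4 libraries. Among paralogs, Ebf2 (2.20) and Ebf3 (1.71) moved with Ebf1, and Tshz3 (1.61) moved with Tshz2 while Tshz1 was at −0.59. Fabp3, the muscle fatty acid carrier, was at 1.30 and Fabp5 at 1.20. Fgf14 (−1.79) and Fgf13 (−1.56), of the same family as Fgf12, were lower in CM4, and Ebf4 and Fgf11 had 2 CM4 UMIs each.

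The 8 genes followed the transferred label as well as the deposited one. In nuclei that were CM4 by both labels they summed to 466, 493, 586 and 464 CPM in WT-MI, KO-MI, WT-Sham and KO-Sham. Nuclei deposited as CM4 with the transferred label CM1 were at 195, 236, 354 and 150 CPM. Nuclei deposited as CM1 with the transferred label CM4 were at 163, 320, 444 and 299, and nuclei that were CM1 by both labels at 82.5, 89.8, 78.9 and 88.7. Both kinds of mixed nuclei lay between the 2 agreeing kinds in every library. They were few, down to 10 nuclei with 8 UMIs for those deposited as CM4 in KO-MI. In KO-MI and WT-Sham their intervals overlapped that of the nuclei that were CM4 by both labels. KO-MI nuclei deposited as CM5 with the transferred label CM4 were at 540 CPM (320 to 853), from 10 nuclei and 18 UMIs. Both labels were made from the expression of these nuclei, and whether the 8 genes were among the features used was not tested, so this is a description only.

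The 5 genes whose level moved most like the members' over the 16 sums of library and population were not of the endothelial list. A gene needed 200 UMIs to enter, which left out Tie1, Erg, Robo4 and Shank3 of that list. The highest Pearson correlations of log2(CPM + 1) with the members' mean, among 9904 genes, were those of Selenof (0.98) and of the ribosomal protein genes Rpl6, Rps21, Rpl39 and Rpsa (0.97 each). The median over those genes was −0.13, and the members themselves ranged from 0.68 (Fgf12) to 0.91 (Ldb2). The 5 highest held 3036 to 15657 UMIs each, against 215 (Cyyr1) to 709 (Ebf1) for the members other than Fabp4. How far such abundance shaped the ranking was not tested. The 16 sums share their 4 libraries, and CM4 sums stand apart in depth, so the values describe these sums only.

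Between libraries, the comparison of genotypes and of surgeries was made within CM4. The 4 comparisons share libraries and are not independent of each other. Summed over the 10 genes, the log2 ratio was 0.09 for the library labelled KO-MI over the one labelled WT-MI (95% interval −0.06 to 0.25), −0.04 for KO-Sham over WT-Sham (−0.17 to 0.09), −0.02 for WT-MI over WT-Sham (−0.17 to 0.13) and 0.11 for KO-MI over KO-Sham (−0.03 to 0.25). Each interval included 0. With 1 library per group, these counting intervals set no limit on a difference between groups. Without Fabp4 the values went from −0.55 to 0.79. Fabp4, which holds most of the UMIs, had ratios from −0.15 to 0.14, and its sign was opposite to that of the sum in KO-Sham over WT-Sham (0.14) and in KO-MI over KO-Sham (−0.15). Summed over the 8 genes, the ratio was 0.21 for KO-MI over WT-MI (−0.12 to 0.53), −0.55 for KO-Sham over WT-Sham (−0.81 to −0.28), −0.43 for WT-MI over WT-Sham (−0.73 to −0.13) and 0.32 for KO-MI over KO-Sham (0.03 to 0.61). WT-Sham was the highest library at 541 CPM, KO-MI followed at 463, and WT-MI at 401 and KO-Sham at 370 were the lowest. The value for KO-MI over KO-Sham fell to 0.17 (−0.12 to 0.46) with TMM scaling and to 0.09 (−0.22 to 0.39) in nuclei that were CM4 by both labels.

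Few single members passed 2-fold between libraries. In the library labelled KO-MI over the one labelled WT-MI, 1 of 10 members was at least 2-fold higher in CM4 (2.99% of all genes) and 1 at least 2-fold lower (6.56%). Flt1 was the higher at 1.06 (95% interval 0.15 to 2.02), with 20.3% of CM4 nuclei against 8.85%, and Pecam1 the lower at −1.48 (−2.54 to −0.52), with 9.32 against 15.1%. These endothelial surface genes went in opposite directions between the same libraries. Ebf1 was at 0.89 (0.21 to 1.60), but at 0.76 (−0.01 to 1.55) without the nucleus with most of its UMIs in each library. In CM1 the same genes had ratios of −0.25 for Flt1, −0.04 for Pecam1 and −0.20 for Ebf1, each with an interval that included 0. The median over members was 0.05, beside −0.08 over all genes.

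Between the libraries labelled KO-Sham and WT-Sham, as KO-Sham over WT-Sham in CM4, none of 9 members was at least 2-fold higher (7.5% of all genes) and 1 was at least 2-fold lower (2.82%). Cyyr1 was the lower, at −1.21 (−2.13 to −0.30), and Fli1 was at −0.93 (−1.68 to −0.18). Ebf1 was at −0.21, and at −1.12 (−2.09 to −0.17) in thinned nuclei. The median over the 9 members was −0.49, beside 0.06 over all genes. In CM1, Cyyr1 went the other way, at 1.67 (0.57 to 2.97), from 45 against 8 UMIs. Fabp4 was at 0.14 (−0.02 to 0.30) in CM4 and at 0.93 (0.85 to 1.02) in CM1. Whether CM4 and CM1 differ in these ratios was not tested.

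For WT-MI over WT-Sham, 1 of 10 members was at least 2-fold higher in CM4 (13.3% of all genes) and 1 at least 2-fold lower (5.64%). Fgf12 was the higher, from 74 UMIs in 2 nuclei against 1 UMI, a log2 ratio of 6.12 with a counting interval of 3.60 to 11.4. Without the leading nucleus of each library no UMI was left in WT-Sham, and the ratio was at least 2.34 against the limit of 3 UMIs. Cyyr1 was the lower, at −1.41 (−2.64 to −0.31). Pecam1 was at 0.31 and the other 7 members between −0.85 and −0.07, and each of these 8 intervals included 0. Ldb2 was among them at −0.58, and at −1.68 (−3.30 to −0.28) without its leading nucleus in each library. For KO-MI over KO-Sham, 2 of 10 were at least 2-fold higher (6.42%) and none at least 2-fold lower (8.64%). They were Fgf12, at 7.04 (4.51 to 12.4) from 62 UMIs in 8 nuclei against 1 UMI, and Flt1, at 1.09 (0.29 to 1.88). Ebf1 was at 0.76 (0.18 to 1.34), and at 0.50 (−0.15 to 1.14) without the nucleus with most of its UMIs in each library. The medians over members were −0.45 and 0.30 in these comparisons, beside 0.16 and 0.00 over all genes.

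**Figure D5:**
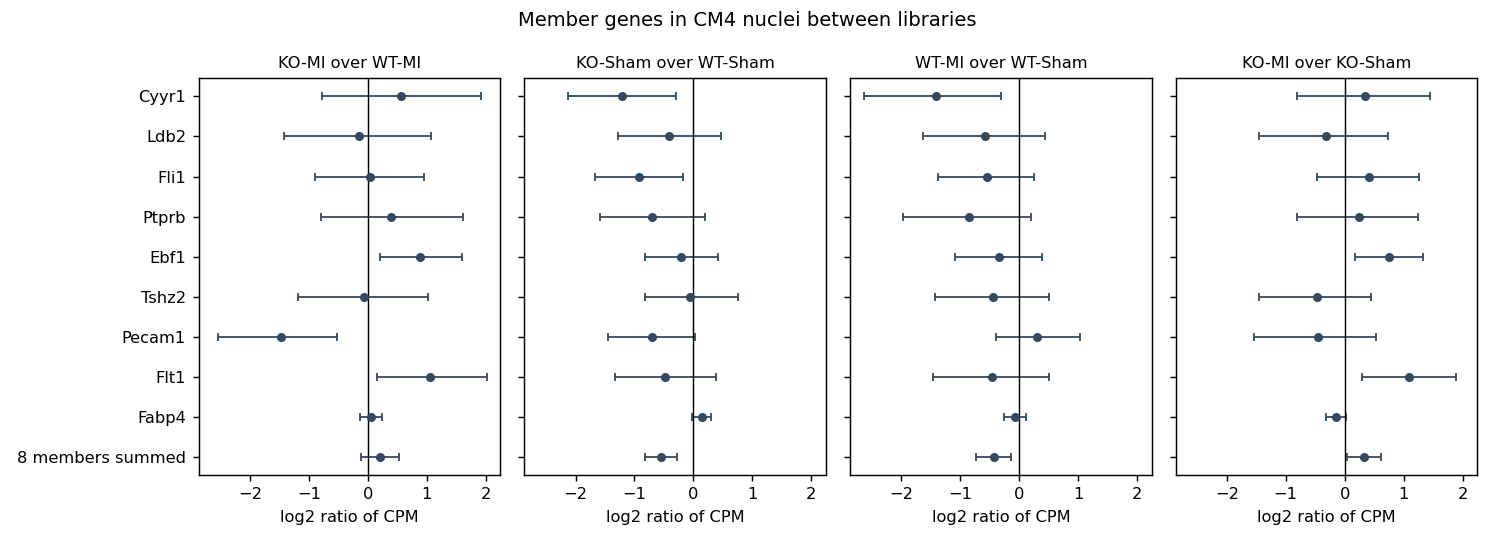
Log2 ratio of CPM in CM4 between libraries for 9 of the genes and for the sum of 8, with exact 95% conditional binomial intervals, in 4 comparisons that share libraries. Most intervals cross 0, and Flt1 and Pecam1 lie on opposite sides in KO-MI over WT-MI. Fgf12 is not drawn.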

How the data were processed

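Single-nucleus RNA was measured in 4 libraries, 1 per group, with groups taken from the sample titles. The authors deposited UMI counts for 22574 genes and 8585 nuclei with no normalization. They had aligned reads with Cell Ranger (version not given in the sources used here) with intronic reads counted on a pre-mRNA reference of mm10/GRCm38, removed Scrublet doublets and nuclei outside 200 to 2500 genes, and kept cardiomyocyte clusters. The labels and the methods name different versions of the 10x kit. The authors also deposited, per nucleus, the library, population, a label transferred with Seurat 3, and the percent of UMIs that are mitochondrial; 11 other columns of values were not used.

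The 10 genes, the marker lists and the pathway lists were chosen with earlier results of these data known. Named genes were the members, Tnnt2, the highest and lowest 3 of each list, the 5 most alike in profile and the 5 highest and lowest between nuclei with and without members; some of these are not reported here. UMIs were summed per library and population and expressed as CPM of that sum, with exact 95% intervals: Poisson for CPM, Clopper-Pearson for shares and conditional binomial for log2 ratios. Intervals cover counting error only, nuclei are not replicates, and no p-value is given. Ratios needed at least 20 UMIs over both sums, and 2-fold was the threshold for counts of genes; a count of 0 allows up to 3 UMIs. Shares were also taken after thinning each nucleus to 1000 UMIs, which left out 7 nuclei. Library totals were 4984625 to 9106522 UMIs. Code was tested on simulated data. TMM factors came from edgeR 4.0.16 in R 4.3.3, and the rest used Python 3.11.15, numpy 2.4.6, scipy 1.17.1 and pandas 2.3.3. Alternatives were other scalings, thinning, the transferred label, both labels, other UMI minimums, 3 or more genes, and sums without Fabp4. Sums over 8 genes, and sums without nuclei rich in Fgf12 or without a gene's leading nucleus, were added after seeing the data.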

Additional observations from a re-analysis of the deposited data

Results flagged for a closer look

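The sum of the 8 genes without Fabp4 and Fgf12 moved in opposite directions between MI and Sham in the libraries of different genotype labels. In CM4 its log2 ratio was −0.432 for WT-MI over WT-Sham (95% interval −0.73 to −0.13) and 0.3239 for KO-MI over KO-Sham (0.03 to 0.61). The difference between the 2 ratios was not tested, each arm is 1 library, and the second value was 0.17 with TMM scaling and 0.75 in thinned nuclei. The first was −0.55 with TMM scaling and −0.56 in thinned nuclei.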

How the results depend on the processing

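No alternative run turned the sign of a value whose main interval excluded 0. Summed over the 10 genes, 17 of 48 values of CM4 over other nuclei, 12 of 44 between libraries, 13 of 20 shares and 4 of 24 Tnnt2 values moved beyond the main interval, and so did 18 of 236 values of single members. The cause was not tested except where the alternative itself leaves out the genes or nuclei named.

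For CM4 over other nuclei, WT-MI (1.92) went to 1.77 with TMM factors, to 1.77 with the transferred label and to 1.80 without nuclei of 5 or more Fgf12 UMIs. WT-Sham (1.85) went to 2.01 with median-of-ratios factors, 1.98 without mitochondrial UMIs and 2.45 with the transferred label. KO-Sham (1.10) went to 0.98 thinned, 1.28 with the transferred label and 1.29 in nuclei of both labels. In the order WT-MI, KO-MI, WT-Sham, KO-Sham, the values without Fabp4 were 2.64, 2.33, 2.71 and 1.87, and over 8 genes 2.19, 2.18, 2.73 and 1.89.

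Between libraries, KO-Sham over WT-Sham (−0.04) went to −0.22 thinned, −0.32 with the transferred label, −0.55 without Fabp4 and −0.55 over 8 genes. WT-MI over WT-Sham (−0.02) went to −0.18 with median-of-ratios factors, −0.61 with the transferred label and −0.43 over 8 genes. KO-MI over KO-Sham (0.11) went to −0.038 with TMM factors and −0.10 with the transferred label, and to 0.32 thinned, 0.79 without Fabp4 and 0.32 over 8 genes. TMM moved every gene by −0.11 in WT-MI over WT-Sham, −0.15 in KO-MI over KO-Sham, and −0.16 and −0.12 in CM4 over other nuclei of WT-MI and KO-MI.

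The share of CM4 nuclei with 2 or more genes was 36.5, 57.6, 48.4 and 31.6% without thinning, 5.24, 6.78, 8.56 and 4.56% for 3 or more genes, and 5.76, 4.24, 9.63 and 5.41% over 8 genes, and 25.6% in KO-Sham nuclei of both labels. The Tnnt2 ratio was −0.38, 0.13 and 0.30 in WT-MI, WT-Sham and KO-Sham for 3 or more genes, and 0.39 in KO-MI without thinning.

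Counts of all genes at least 2-fold apart depended on the minimum of UMIs. With 50 UMIs and with no minimum, those higher in CM4 were 1467 and 5218 in WT-MI (2210 with 20 UMIs), 1559 and 5676 in KO-MI (2513) and 370 and 3094 in KO-Sham (688), and 4570 in WT-Sham with no minimum (1961). In the same way KO-MI over WT-MI had 30 and 870 higher (170) and 78 and 1280 lower (373). KO-Sham over WT-Sham had 148 and 1414 higher (511) and 34 and 764 lower (192). WT-MI over WT-Sham had 272 and 1842 higher (770) and 120 and 1080 lower (326). KO-MI over KO-Sham had 157 and 1188 higher (433) and 204 and 1336 lower (583).

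No paired analysis was possible because the groups compared share fewer than 2 replicate numbers, with 1 library each. No replicate was left out for the same reason, and an additive fit of genotype and surgery over the 4 libraries was not made. Without Fabp4 and Fgf12 the members rested on 10 to 59 UMIs per library in CM4, so that differences between libraries within their intervals were not detectable at this depth.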
